A study of Mus musculus with 9 samples.

Results

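Hmga1, Hmga2, Igf2bp1, Igf2bp2, Igf2bp3 and Lin28b, oncofetal growth genes of the Hmga, Igf2bp and Lin28 families, were followed through the culture of mouse muscle stem cells. They were found by gene symbol, 6 of 45706 genes in the deposited table. Hmga2 was chosen by its measured rise from freshly isolated to cultured cells, so its differences between stages, which rest on the same libraries, are given as a description with no test. The cells were satellite cells, the resident stem cells of skeletal muscle, from wild-type C57Bl6 mice of 12 to 20 weeks. They were sequenced at 3 stages, with 3 libraries from separate animals at each. Freshly isolated cells came directly from muscle. Proliferating cells had spent at least 3 days in DMEM and Ham F-10 with 20% fetal calf serum and 2.5 ng/ml human FGF-2. The last stage, labelled as differentiating and called myotubes here, had then been kept for 6 days in DMEM with 2% horse serum. No group carried a genetic change, per the labels.

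HMGA proteins are small chromatin proteins that bind the minor groove of AT-rich DNA through their AT hooks and bend it for other factors. IGF2BP proteins (also called IMPs) bind mRNAs, among them that of the growth factor Igf2, and influence their stability, transport and translation. LIN28B binds precursors of the let-7 microRNAs and blocks their maturation, and mature let-7 in turn represses mRNAs that carry its target site. The 3 families are high in embryonic tissues and in many tumours and low in most adult tissues, and Hmga2 and Igf2bp2 are known as a pair that acts in dividing myoblasts.

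The let-7 site is the sequence feature that these genes are best known to share, so the microRNAs and the matching mRNA sites are shown first. Sequences of the mature microRNAs come from RefSeq (GRCm38.p6), and capitals mark the seed, bases 2 to 8.
let-7a-5p: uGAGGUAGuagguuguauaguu
let-7b-5p: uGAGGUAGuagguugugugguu
let-7i-5p: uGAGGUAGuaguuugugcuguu
miR-98-5p: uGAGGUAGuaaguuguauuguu
Of 13 mature let-7 and miR-98 entries, 12 had this seed, and let-7j differed in it. The reverse complement of the seed, CTACCTC, was searched on the mRNA strand of the longest annotated 3' UTR of each gene (GENCODE vM21, GRCm38). Each of the 6 genes had at least 1 match, against 1898 of all 21037 genes with a 3' UTR (9.02%). Hmga2, Igf2bp1 and Lin28b had 4 matches each, a number reached or passed by 12 genes in all. The matches are shown with the bases around them, all in 3' UTR exons, with the 7 matching bases in capitals and their position on GRCm38.
Hmga2, chr10:120364225-120364231, minus strand: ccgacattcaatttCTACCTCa
Hmga2, chr10:120362988-120362994, minus strand: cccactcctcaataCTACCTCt
Hmga2, chr10:120362550-120362556, minus strand: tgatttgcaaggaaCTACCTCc
Hmga2, chr10:120361692-120361698, minus strand: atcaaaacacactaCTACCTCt
Hmga1, chr17:27563292-27563298, plus strand: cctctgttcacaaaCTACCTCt
Igf2bp1, chr11:95961779-95961785, minus strand: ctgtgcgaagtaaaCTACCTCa
Igf2bp2, chr16:22059474-22059480, minus strand: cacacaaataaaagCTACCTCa
Igf2bp3, chr6:49086788-49086794, minus strand: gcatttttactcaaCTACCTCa
Lin28b, chr10:45381023-45381029, minus strand: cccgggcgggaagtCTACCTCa
The first of the 4 matches is shown for Igf2bp1 and for Lin28b. Of the 15 matches in the 6 genes, 7 were followed by an A, the base that lies opposite the first base of the microRNA. Long 3' UTRs hold more matches, so each gene was set beside the 3' UTRs within 20% of its own length. For Hmga2, with 3014 bases, 15.5% of 2246 such UTRs had a match and 0.134% had 4 or more. Among 1271 UTRs near the length of that of Lin28b (4445 bases), 24.2% had a match and 0.236% had 4 or more, and among 564 near that of Igf2bp1 (6337 bases) the shares were 33.7% and 0.355%. A single match was less rare at the lengths of the other genes, with a share of 8.07% for Hmga1, 12.0% for Igf2bp2 and 13.3% for Igf2bp3. A match is a description of the sequence and was not measured as a site in these cells.

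**Figure D1:**
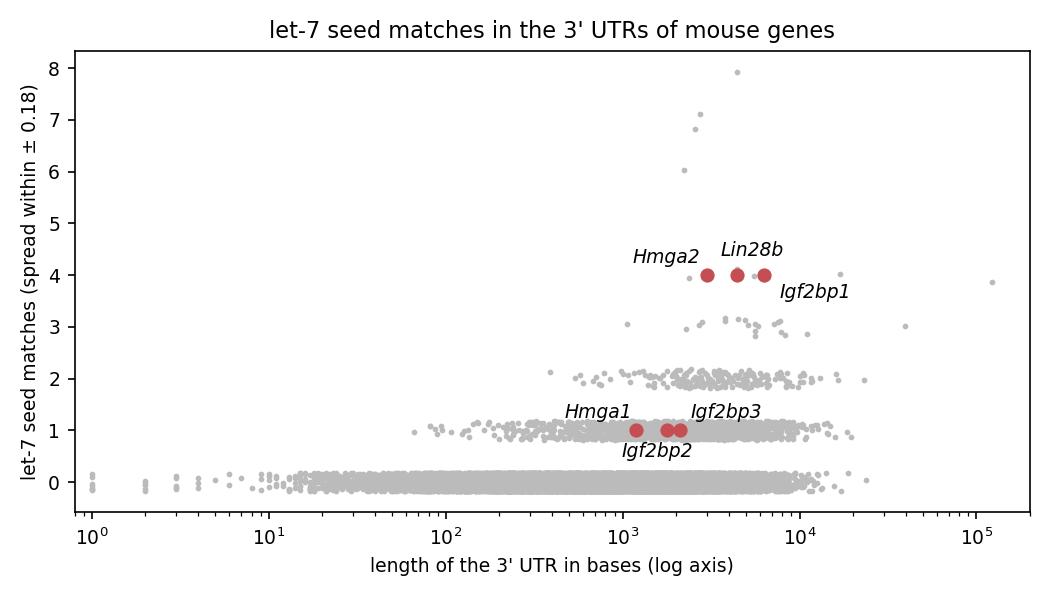
The number of let-7 seed matches (vertical axis, points spread within 0.18 for visibility) is plotted against the length of the 3' UTR in bases (log axis) for 21037 mouse genes, in grey, and the 6 genes studied, in red. Hmga2, Lin28b and Igf2bp1 lie at 4 matches, and Hmga1, Igf2bp2 and Igf2bp3 lie at 1.

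Values are normalized read counts as deposited, that is, gene counts scaled between libraries and rounded. They summed to 17.8 to 26.2 M per library, and the spacing of low values put 1 read at 0.748 to 2.179 normalized units. Estimated from that spacing, 12.0 M reads were assigned to genes in freshly isolated 1 and 19.3 to 24.3 M in the other libraries. Freshly isolated 1 stood apart, with 22.2% of its total in the single non-coding gene Gm26917 and with 471 normalized reads of the division marker Mki67, against 66 and 163 in libraries 2 and 3 of that stage. Proliferating 1 was low in muscle differentiation genes, with 2179 of the myogenic factor Myog against 9530 and 8749 in proliferating 2 and 3. Results are therefore also given without these libraries where that moves them. Pax7, which marks satellite cells, was at 11694 to 15700 in freshly isolated, 2556 to 3330 in proliferating and 1192 to 1645 in myotube libraries. Mki67 was at 22495 to 25457 in proliferating and still at 7550 to 13203 in myotube libraries, and the part of cell division in the levels of Hmga1 and Hmga2 was not tested. In bulk RNA, fewer cells that express a gene and less RNA per cell cannot be told apart.

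The 6 genes did not share a pattern over the stages. Hmga1 and Hmga2 were highest in proliferating cells, Igf2bp2 and Lin28b in freshly isolated cells and Igf2bp1 in myotubes, while Igf2bp3 was low at each stage. The 6 genes could also be ordered by level within a stage, using normalized reads per kb of exon so that genes of unlike length can be set side by side. In freshly isolated cells Hmga1 (173 ± 44.8 per kb, SD, n = 3) and Igf2bp2 (122 ± 13.4) were at the top and their libraries overlapped, while the other 4 genes were at 2.33 per kb or less. In proliferating cells Hmga1 (836 ± 270) and Hmga2 (503 ± 210) overlapped at the top, followed by Igf2bp2 (62.6 ± 4.11), and Igf2bp3, Igf2bp1 and Lin28b were between 2.78 and 0.404. In myotubes Hmga1 (83.5 ± 16.0), Igf2bp2 (63.2 ± 8.61) and Hmga2 (52.7 ± 16.9) were neighbours with overlapping libraries, Igf2bp1 followed at 10.4 ± 0.775, and Igf2bp3 and Lin28b were at 4.21 ± 1.11 and 0.478 ± 0.230. The order at the top rests on the length used. With the longest coding transcript in place of all exons, Igf2bp2 (231 ± 25.4 per kb) was above Hmga1 (184 ± 47.6) in freshly isolated cells, and Hmga1 (887 ± 287) and Hmga2 (895 ± 374) were level in proliferating cells. In myotubes Igf2bp2 (120 ± 16.3) then came first, before Hmga2 (93.6 ± 30.1) and Hmga1 (88.6 ± 17.0).

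**Figure D2:**
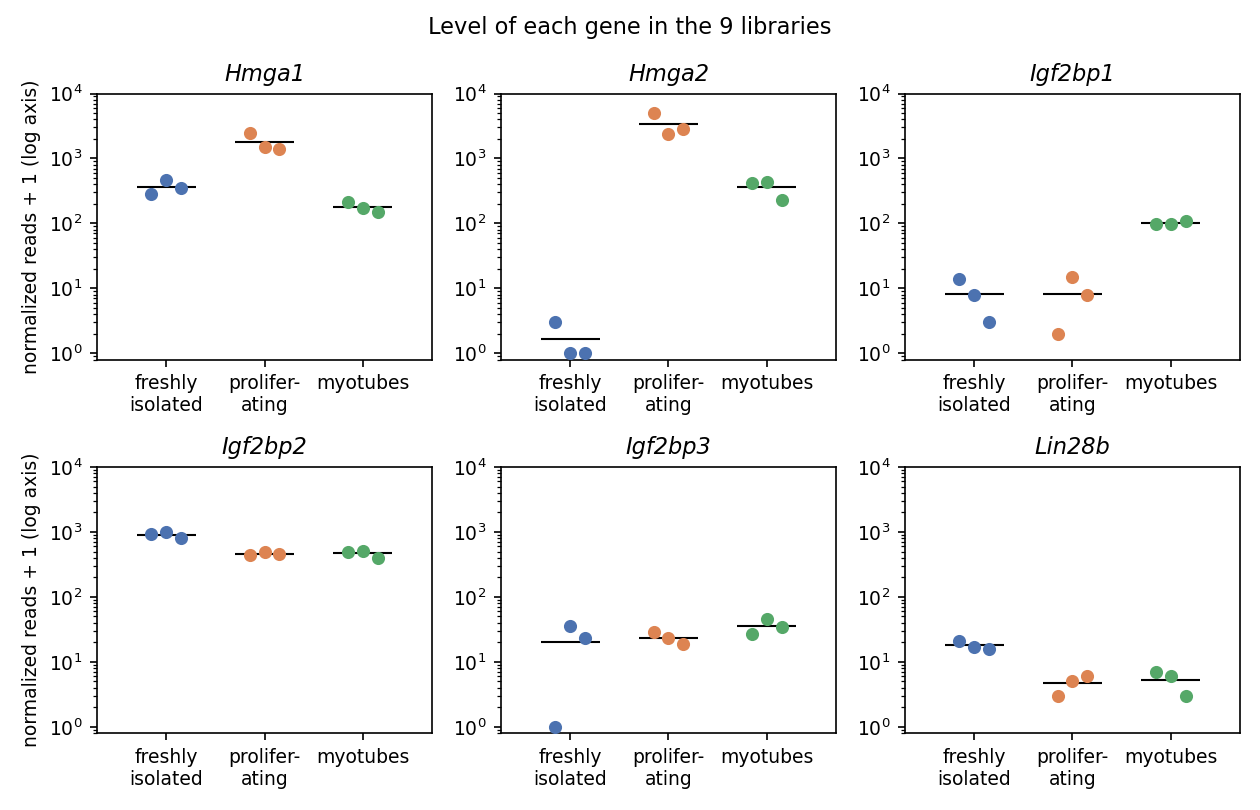
Normalized reads plus 1 (vertical log axis) are shown for each gene in the 3 freshly isolated, 3 proliferating and 3 myotube libraries, 1 point a library in the order of replicates 1 to 3, with the mean as a line. Hmga2 is at 0 to 2 normalized reads in freshly isolated cells and at 2380 to 5033 in proliferating cells, and Igf2bp1 is at 96 to 109 in myotubes and at 14 or less elsewhere.

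Hmga1 (ENSMUSG00000046711, chromosome 17, 27556497 to 27563674, plus strand) encodes the family member that many adult cell types keep at a low level. Its normalized reads were 281, 470 and 355 in freshly isolated libraries 1 to 3, 2437, 1492 and 1398 in proliferating libraries 1 to 3, and 214, 171 and 147 in myotube libraries 1 to 3. No libraries of different stages overlapped, and proliferating 1 was the highest of all. From freshly isolated to proliferating cells Hmga1 rose 4.76-fold (log2 change 2.25 ± 0.25, SE, limma adjusted p = 1.69e-05). From proliferating cells to myotubes it fell 9.76-fold (log2 change -3.29 ± 0.25, limma adjusted p = 3.93e-06). Myotubes ended 2.05-fold below freshly isolated cells (log2 change -1.04 ± 0.25, limma adjusted p = 0.00321). Without freshly isolated 1 and proliferating 1, the changes of Hmga1 were 1.82, -3.04 and -1.22, each called. AI413582, a gene on the opposite strand whose exons overlap those of Hmga1, was at 221 to 305 in freshly isolated, 63 to 79 in proliferating and 75 to 100 in myotube libraries.

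Hmga2 (ENSMUSG00000056758, chromosome 10, 120361275 to 120476469, minus strand) encodes the family member found mainly in embryonic and stem cells. It was at 2, 0 and 0 in freshly isolated, 5033, 2380 and 2813 in proliferating, and 412, 433 and 225 in myotube libraries. The value of 2 in freshly isolated 1 amounts to 1 read, and a count of 0 allows up to 3 reads, or 3.16 and 3.13 normalized units in the libraries with none. The 3 proliferating libraries held an estimated 12618 reads of Hmga2 and the myotube libraries 1184. Scaled for depth, the ratio of proliferating to freshly isolated cells was 8034, and that of myotubes to freshly isolated cells was 855. Both ratios pool the reads of the 3 libraries of a stage and rest on 1 read in freshly isolated cells. No interval is given, since Hmga2 was chosen by this rise and reads without molecular tags are not independent molecules. On the log2 scale the fitted differences were 11.13 ± 0.47 and 7.90 ± 0.47 with a pseudocount of 1, and 9.18 and 5.96 with a pseudocount of 5, so they depend on that choice. In that contrast, which chose it, Hmga2 had the highest fitted difference of the 17291 genes tested.

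In myotubes against proliferating cells Hmga2 was 9.41-fold lower (log2 difference -3.23 ± 0.47). This comparison uses the proliferating libraries whose high level chose the gene, so it too is a description. The lowest proliferating library was above the highest myotube library. Without proliferating 1, the library with the highest level, the difference was -2.91. It can be set beside that of Hmga1, since the log2 ratio of Hmga2 to Hmga1 was 1.05, 0.67 and 1.01 in proliferating and 0.94, 1.34 and 0.61 in myotube libraries. These ratios overlapped, and their means differed by 0.05. Counted from the most negative difference among the 17291 genes tested, Hmga1 had rank 90 and Hmga2 rank 98.

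The Hmga2 locus also gave transcripts listed under other genes. 1700006J14Rik, an antisense gene whose exons overlap those of Hmga2, was at 0, 1 and 4 in freshly isolated, 586, 186 and 290 in proliferating and 14, 15 and 10 in myotube libraries. 9230105E05Rik, antisense without exon overlap, was at 0 in each freshly isolated library, at 405, 132 and 150 in proliferating and at 9, 3 and 3 in myotube libraries. As with Hmga2, proliferating 1 was the highest library for both. The library kit kept strand, but whether the counting used strand was not stated, so reads of Hmga2 and of its antisense genes cannot be told apart with certainty.

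The promoter of Hmga2 is shown because it belongs to the gene with the widest range between stages among the 6. The run holds the 250 bases before the RefSeq start site (chr10:120476470-120476719, GRCm38.p6, minus strand), with the match to GGGCGG on either strand in capitals.
Hmga2 promoter: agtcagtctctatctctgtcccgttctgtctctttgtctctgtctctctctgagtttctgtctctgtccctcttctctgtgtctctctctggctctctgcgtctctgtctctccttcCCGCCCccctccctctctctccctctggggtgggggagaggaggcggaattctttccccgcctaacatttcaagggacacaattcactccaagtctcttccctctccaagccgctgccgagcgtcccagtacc
C and T made up 70.8% of these bases, against a median of 50% over 27025 mouse promoters of the same length, and 110 of them (0.407%) had as high a share. GGGCGG, the core of the GC box, was found once, and 32.9% of all promoters held it. No match was found to CCAAT (in 34.5% of promoters), to TATAAA (in 13.0%) or to the E-box CANNTG (in 66.0%), each searched on both strands.

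Among the mRNA-binding genes, Igf2bp2 was the most abundant and Igf2bp1 changed the most. Igf2bp2 (ENSMUSG00000033581, chromosome 16, 22059009 to 22163299, minus strand) encodes the member that adult tissues keep. Its normalized reads were 919, 992 and 796 in freshly isolated, 436, 496 and 457 in proliferating and 494, 514 and 395 in myotube libraries. Each freshly isolated library was above each cultured library, and the cultured stages overlapped. Igf2bp2 fell 1.94-fold on entry into culture (log2 change -0.96 ± 0.13, limma adjusted p = 9.16e-05). Myotubes were at a similar distance below freshly isolated cells (log2 change -0.95 ± 0.13, limma adjusted p = 8.3e-05). Between proliferating cells and myotubes its log2 difference was 0.01 ± 0.13, which did not pass the test (limma adjusted p = 0.973). On entry into culture Hmga2 was thus higher and Igf2bp2 lower, and from proliferating cells to myotubes their log2 ratio dropped from 3.53, 2.26 and 2.62 to -0.26, -0.25 and -0.81. Those ratios did not overlap.

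Igf2bp1 (ENSMUSG00000013415, chromosome 11, 95957163 to 96005940, minus strand) encodes the member best known from embryos and tumours. It was at 13, 7 and 2 in freshly isolated, 1, 14 and 7 in proliferating and 96, 96 and 109 in myotube libraries. The myotube libraries agreed closely and all lay above the other 6, which overlapped each other. An estimated 15 reads stood behind the freshly isolated values, 28 behind the proliferating values and 328 behind the myotube values. Igf2bp1 passed the filter on low values only through its myotube libraries, so its rises were also tested without a filter. It rose 16.3-fold from proliferating cells to myotubes (log2 change 4.02 ± 0.75, limma adjusted p = 0.00116, and 0.00196 with no filter), and by 3.21 on the log2 scale without proliferating 1 and 4.66 without proliferating 2. Against freshly isolated cells the rise was 14.6-fold (log2 change 3.86 ± 0.75, limma adjusted p = 0.000809, and 0.00138 with no filter), and 3.26 on the log2 scale without freshly isolated 3. Freshly isolated and proliferating cells differed by -0.16 ± 0.75, which did not pass the test (limma adjusted p = 0.855), and the sign turned when either of the libraries that stand apart was left out. The genes that overlap Igf2bp1 on the annotation, Gm29202 and Mir3063, were listed at 0 in each library.

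Igf2bp3 (ENSMUSG00000029814, chromosome 6, 49085223 to 49214957, minus strand), the third paralog and also mainly embryonic, was at 0, 35 and 22 in freshly isolated, 28, 22 and 18 in proliferating and 26, 44 and 33 in myotube libraries. The stages overlapped. The 0 was in freshly isolated 1, the shallowest library, where it allows up to 6.54 normalized units. None of its changes passed the test: the log2 difference was 1.31 ± 1.09 on entry into culture (limma adjusted p = 0.296), 0.57 ± 1.09 from there to myotubes (limma adjusted p = 0.687) and 1.88 ± 1.09 between the ends (limma adjusted p = 0.138). Without freshly isolated 1 the first was -0.30 and the last 0.26, so that library decides both values. Without freshly isolated 2 the last was 2.85 and passed the test (limma adjusted p = 0.0352). Exons of Malsu1, on the opposite strand, overlap Igf2bp3, and Malsu1 was at 113 to 139 in freshly isolated, 161 to 185 in proliferating and 336 to 431 in myotube libraries.

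Per kb of exon, the summed level of the 3 paralogs was 125, 139 and 110 in freshly isolated, 62.4, 71.2 and 64.7 in proliferating and 79.8, 84.7 and 68.7 in myotube libraries. Igf2bp2 made up 96.4 to 98.9% of that sum in freshly isolated, 94.2 to 95.5% in proliferating and 77.7 to 83.6% in myotube libraries. Igf2bp1 held 1.07, 0.52 and 0.187% in freshly isolated, 0.165, 2.03 and 1.12% in proliferating and 12.4, 11.7 and 16.4% in myotube libraries. The share of Igf2bp1 in myotubes thus lay above that in each other library. The log2 ratio of Igf2bp1 to Igf2bp2 was 4.02 higher in myotubes than in proliferating cells and 4.81 higher than in freshly isolated cells (exact permutation test, two-sided, p = 0.1 for each, the smallest that 3 against 3 allows, and 0.16 adjusted over 8 comparisons of ratios).

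**Figure D3:**
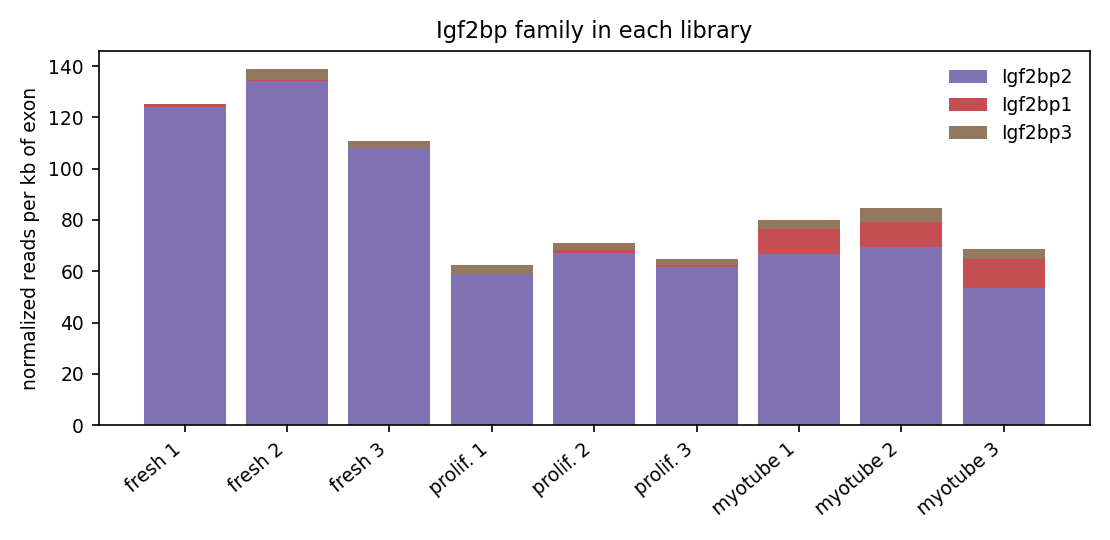
Stacked bars give the normalized reads per kb of exon of Igf2bp2, Igf2bp1 and Igf2bp3 in each of the 9 libraries (3 freshly isolated, 3 proliferating, 3 myotube). Igf2bp2 forms most of each bar, and Igf2bp1 is at 11.7 to 16.4% of the sum in the myotube libraries and at 2.03% or less in the others.

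Lin28b (ENSMUSG00000063804, chromosome 10, 45376620 to 45486395, minus strand), the block on let-7 maturation, was low throughout. It was at 20, 16 and 15 in freshly isolated, 2, 4 and 5 in proliferating and 6, 5 and 2 in myotube libraries. Those values rest on an estimated 38, 13 and 14 reads per stage. The freshly isolated libraries did not overlap the cultured ones, which overlapped each other. Lin28b passed the filter on low values only because its freshly isolated libraries, where it is high, reached 10, and without 1 of those it was not tested. It fell 3.99-fold on entry into culture (log2 change -2.0 ± 0.47, limma adjusted p = 0.00300, and 0.0122 with no filter). Myotubes were 3.57-fold below freshly isolated cells (log2 change -1.83 ± 0.47, limma adjusted p = 0.00446, and 0.0173 with no filter). Its difference between the cultured stages was 0.16 ± 0.47 (limma adjusted p = 0.793). The paralog Lin28a was at 0, 1 and 2 in freshly isolated, 0, 1 and 0 in proliferating and 3, 2 and 1 in myotube libraries, too low to be tested.

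The counts of called genes among the 6 are read against the whole table. The filter of 10 normalized reads in 3 or more libraries left 17291 genes, of which limma called 73.3% on entry into culture at an adjusted p below 0.05, 37.6% as higher and 35.7% as lower. Of the 6 genes, Hmga1 was called higher and Igf2bp2 and Lin28b lower there, next to Hmga2, which the contrast had chosen. The median log2 change was -0.16 over the 5 genes other than Hmga2, against 0.07 for all genes. From there to myotubes 54.1% of genes were called, 28.6% higher and 25.5% lower, and Igf2bp1 was called higher and Hmga1 lower, with a median of 0.16 over the 5 genes against 0.04. In myotubes against freshly isolated cells 77.6% were called, 40.2% higher and 37.3% lower, and Igf2bp1 was called higher, and Hmga1, Igf2bp2 and Lin28b lower, with a median of -0.95 over the 5 genes against 0.10. Igf2bp1 and Lin28b passed the filter through the stage where each is high, so these counts are a description. The 3 comparisons share libraries in pairs and are not independent of each other.

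**Figure D4:**
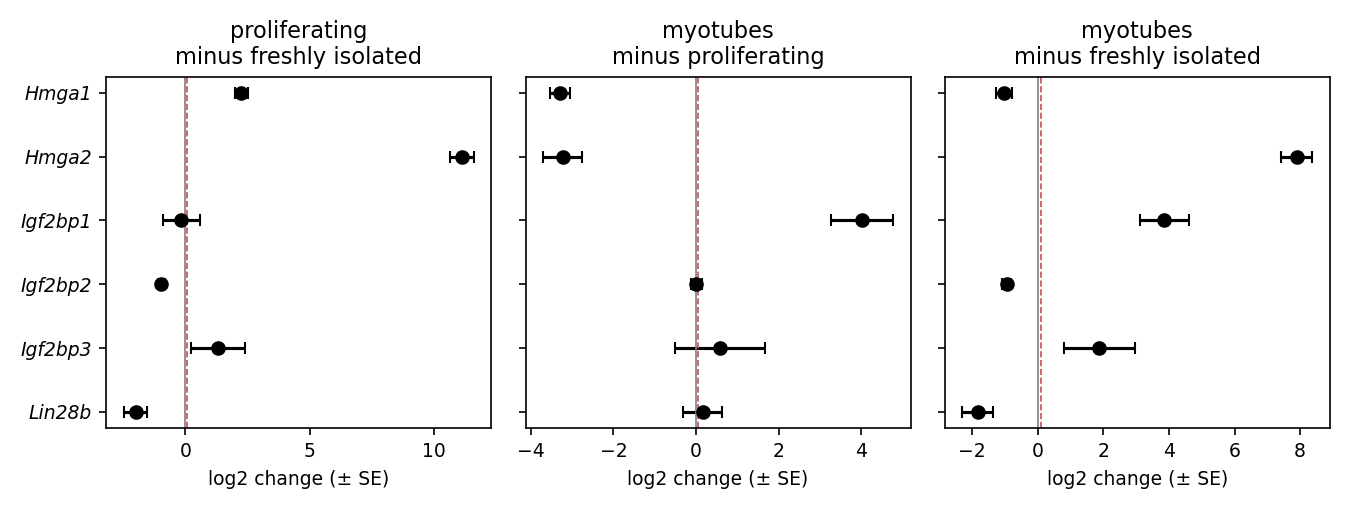
The log2 change of each gene is shown with its SE for the 3 comparisons of stages, with a grey line at 0 and a dashed red line at the median of all genes tested (0.07, 0.04 and 0.10). Hmga1 and Hmga2 lie near -3.29 and -3.23 in myotubes minus proliferating cells, and Igf2bp1 lies at 4.02 there.

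The transcripts of let-7 itself were followed through its precursor and host genes, since mature microRNAs were not measured by these libraries. Of 15 such genes, 11 were in the table and 3 could be tested. Mirlet7b was at 2, 2 and 4 in freshly isolated, 2, 1 and 1 in proliferating and 11, 15 and 13 in myotube libraries, and passed the filter only through its myotube libraries. It rose from proliferating cells to myotubes (log2 change 2.60 ± 0.42, limma adjusted p = 0.000449, and 0.00251 with no filter). Mirlet7a-1 was at 0, 14 and 7, then 15, 18 and 7, then 41, 37 and 71, and was called higher in myotubes than in freshly isolated cells (log2 change 3.30 ± 0.87, limma adjusted p = 0.0053; 2.15 without freshly isolated 1 and 4.10 without freshly isolated 2). Mir99ahg, the host of the let-7c-1 cluster, fell from 516, 665 and 710 to 257, 240 and 251 in proliferating cells and rose to 429, 406 and 470 in myotubes (log2 changes -1.32 ± 0.14 and 0.80 ± 0.14, limma adjusted p = 1.12e-05 and 0.000743). Mir99ahg was thus lowest in proliferating cells, as was the mean of Mirlet7b, while that of Mirlet7a-1 was lowest in freshly isolated cells. Between these 2 stages Mirlet7b and Mirlet7a-1 were not called (limma adjusted p = 0.194 and 0.155). The bearing of these transcripts on Hmga1 and Hmga2 was not tested. The other let-7 genes in the table were too low to be tested, and Mir98 among them was highest in freshly isolated cells, at 9, 47 and 29 against 6 or less in cultured libraries.

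Enzymes that process let-7 and partners of Lin28 changed in both directions. On entry into culture 7 of 14 rose and 3 fell (50% and 21.4%, against 37.6% and 35.7% of all genes), with a median log2 change of 0.25. From there to myotubes 3 rose and 9 fell (21.4% and 64.3%, against 28.6% and 25.5% of all genes), with a median of -0.56. These 4 shares of all genes are the background for each list that follows. Trim71, a let-7 target and an RNA-binding partner of the same pathway, rose from 4, 9 and 3 to 74, 63 and 38 (log2 change 3.29 ± 0.42) and was at 46, 51 and 54 in myotubes. Trim71 passed the filter on low values only through its cultured libraries. Dgcr8, the RNA-binding part of the microprocessor, rose 5.52-fold, from 325 ± 87.7 to 1758 ± 48.6, and fell to 707 ± 43.1 in myotubes. Zcchc6, which adds uridine to let-7 precursors, fell from 4580 ± 436 to 1627 ± 60.9, and Dis3l2, the nuclease that degrades precursors tailed in this way, from 743 ± 110 to 324 ± 7.81. In myotubes against proliferating cells Khsrp, which promotes let-7 processing, fell 3.76-fold and Prkra, a Dicer partner, rose 1.94-fold. Between myotubes and freshly isolated cells 5 rose and 7 fell (35.7% and 50%, against 40.2% and 37.3% of all genes).

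Other genes described as let-7 targets also moved in both directions. Of 24, 15 rose and 8 fell on entry into culture (62.5% and 33.3%, against 37.6% and 35.7% of all genes), with a median of 0.99. From there to myotubes 8 rose, a share near that of all genes (33.3% against 28.6%), and 12 fell (50% against 25.5%), with a median of -0.58. Rrm2, a subunit of ribonucleotide reductase, rose from 137 ± 30.7 to 13729 ± 826 and fell to 2558 ± 544 in myotubes. Dna2, a replication nuclease, rose from 23.3 ± 19.6 to 632 ± 27.1 (log2 change 5.13, 5.78 without freshly isolated 1 and 4.33 without freshly isolated 2). Irs2, an adaptor of the insulin and IGF receptors, fell from 13520 ± 955 to 428 ± 25.8, and Myc from 13519 ± 1790 to 972 ± 348 and then to 171 ± 32.2. Hras and E2f6 rose from proliferating cells to myotubes, by 1.18 ± 0.17 and 1.16 ± 0.14 on the log2 scale. The seed match was in the 3' UTR of 16 of these 24 genes, and those of Myc, Hras and Ccnd1 held none.

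Over all genes with a 3' UTR that were tested, the changes were split by the number of let-7 seed matches. In myotubes against proliferating cells the median log2 change was 0.09 for 12180 genes without a match and 0.05 for 1279 genes with 1 match. It was -0.14 for 177 genes with 2 or more, of which 46 rose and 59 fell. These falls were 33.3% of the 177, against 28.1% of all genes with a 3' UTR that were tested. The rises were a smaller share than the 32.6% of all genes with a 3' UTR. On entry into culture the medians were 0.22, 0.20 and 0.17, and in myotubes against freshly isolated cells they were 0.29, 0.24 and 0.25. The groups were not matched for the length of the 3' UTR, and long 3' UTRs hold more matches, so number and length cannot be told apart here. Hmga2, Igf2bp1 and Lin28b, with 4 matches each, lay at -3.23, 4.02 and 0.16 in myotubes against proliferating cells. Hmga2 was chosen from these libraries, and Igf2bp1 passed the filter only through its myotube libraries. Lin28b was at 6 or less in each library of both stages. The part of let-7 in these changes was not tested.

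Other high mobility group genes mostly rose on entry into culture and fell from there to myotubes, as Hmga1 did. Of 11, 9 rose and the other 2 were not called on entry into culture (median 1.22), a share of 81.8% against 37.6% of all genes. From there to myotubes 1 rose and 8 fell (median -0.78), and the falls were 72.7% against 25.5% of all genes. Hmgb3, an HMG-box protein of stem and progenitor cells, had 174, 86 and 47 in freshly isolated, 891, 978 and 773 in proliferating and 214, 219 and 175 in myotube libraries, and its log2 changes were 3.28 ± 0.37 and -2.11 ± 0.37. Hmgxb4 rose from 301 ± 22.2 to 1068 ± 17.1, and Hmgb2 fell from 1787 ± 233 in proliferating cells to 478 ± 88.6 in myotubes. Between myotubes and freshly isolated cells 6 of the 11 rose (54.5%, against 40.2% of all genes), Hmgxb4 (1.38 ± 0.10) and Hmgn2 (1.26 ± 0.15) most, and 2 fell, Hmgn5 (-1.23 ± 0.41, -0.63 without freshly isolated 1) and Hmgxb3 (-0.49 ± 0.12). Hmgn5 lost its call in 1 of 21 alternatives.

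**Figure D5:**
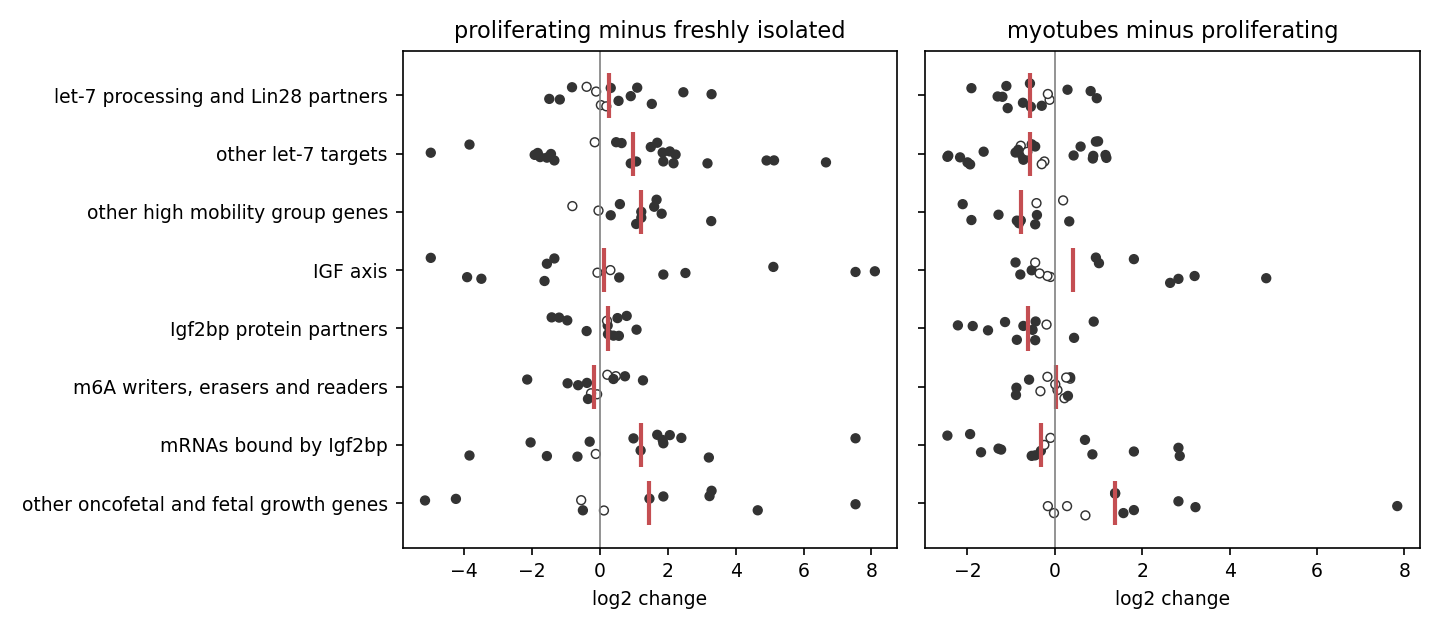
Each point is the log2 change of 1 tested gene of a list, for proliferating minus freshly isolated cells and myotubes minus proliferating cells, filled where the gene was called and open where it was not, with the list's median as a red bar. The median of the other high mobility group genes is at 1.22 and then at -0.78, and that of the other oncofetal genes is at 1.46 and then at 1.38.

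The IGF axis, from which the Igf2bp proteins take their name, changed in both directions. The Igf2 ligand and several binding proteins were among the rises. Igf1, Irs2, the binding protein Igfbp4 and the receptor genes Igf1r, Igf2r and Insr fell on entry into culture. Of these, Igf1, Igf2r and Insr rose again into myotubes. Of 14 genes 6 rose and 6 fell on entry into culture (median 0.12), 42.9% each way, which is near the 37.6% and 35.7% of all genes. In myotubes against proliferating cells 7 rose and 3 fell (median 0.42), 50% and 21.4% against 28.6% and 25.5% of all genes. Igf2, the ligand whose mRNA the Igf2bp proteins bind, was at 2730, 3888 and 2476 in freshly isolated, 7073, 14634 and 12419 in proliferating and 78901, 78023 and 74892 in myotube libraries. It rose at each step (log2 changes 1.87 ± 0.25 and 2.83 ± 0.25, limma adjusted p = 6.33e-05 and 8.78e-06), while Igf2bp1 passed the test at the second of these steps and not at the first. H19, the non-coding neighbour of Igf2, rose from 500 ± 60.2 to 92730 ± 11580 and 323502 ± 26252. Igfbp2, a binding protein of the ligands, was listed at 0 in the freshly isolated libraries, at 277, 253 and 293 in proliferating and at 241, 255 and 233 in myotube libraries. Igfbp2 passed the filter on low values only through its cultured libraries, as did Igfbp6 of the same list, so counts that include them are a description. Igf1, the other ligand, went from 368, 236 and 362 to 5, 53 and 28 and back to 641, 566 and 600, and its fall of 3.91 on the log2 scale was -3.00 without proliferating 1 and -4.59 without proliferating 2. Its rise of 4.84 into myotubes was 3.93 and 5.51 without the same libraries. At the second step Igfbp7 rose by 3.20 ± 0.25 on the log2 scale and Igfbp5 fell by 0.79 ± 0.23.

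Partners of the Igf2bp proteins in mRNA complexes were mostly lower in myotubes, the stage at which Igf2bp1 was high. From proliferating cells to myotubes 2 of 12 rose and 9 fell (median -0.62), 16.7% and 75.0% against 28.6% and 25.5% of all genes. On entry into culture 7 rose and 4 fell (median 0.23), 58.3% and 33.3% against 37.6% and 35.7%. Ybx1, a general mRNA packaging protein, rose from 5454 ± 806 to 11554 ± 1559, and Elavl1, which stabilizes AU-rich mRNAs, from 2321 ± 131 to 4023 ± 217. Stau1, a double-strand RNA-binding protein, fell from 5420 ± 357 to 2026 ± 93.6, and the splicing regulator Ptbp1 from 7339 ± 799 to 3223 ± 733 and then to 861 ± 71.4. The poly(A)-binding protein Pabpc1 fell from 36257 ± 3178 in proliferating cells to 7851 ± 1319 in myotubes, and the rises there were Stau2, by 0.89 ± 0.13 on the log2 scale, and Matr3, by 0.44 ± 0.09. The call of Matr3 was lost when libraries were scaled to their totals without the 10 largest genes.

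The machinery of m6A, the RNA mark that Igf2bp proteins are described to read, held rises and falls. Of 12 tested genes 3 rose and 5 fell on entry into culture (median -0.17), 25.0% and 41.7% against 37.6% and 35.7%. At the next step, into myotubes, 2 rose and 3 fell (median 0.03), 16.7% and 25.0% against 28.6% and 25.5%. On entry into culture the methyltransferase subunits Mettl14 and Mettl3 rose by 1.27 ± 0.15 and 0.74 ± 0.17 on the log2 scale. The nuclear reader Ythdc1 fell there from 7574 ± 599 to 1719 ± 74.5. Mettl3 lost its call in 1 of 21 alternatives. At the step to myotubes Rbm15, a writer subunit, and the demethylase Alkbh5 fell, by 0.89 ± 0.08 and 0.88 ± 0.13. The 2 rises there were small, Fto by 0.35 ± 0.07 and Ythdc2 by 0.30 ± 0.11. Fto lost its call in 1 of 21 alternatives and Ythdc2 in 9 of 21. Among mRNAs described as bound by Igf2bp proteins, 9 of 15 rose and 5 fell on entry into culture (median 1.20), 60.0% and 33.3% against 37.6% and 35.7% of all genes. Into myotubes 5 rose and 8 fell (median -0.32), 33.3% and 53.3% against 28.6% and 25.5%. Ccng1, a cyclin-like p53 target, rose at both steps, from 318 ± 119 to 2794 ± 208 and 20455 ± 3333. Ccnd1 fell from 6913 ± 1614 in proliferating cells to 1775 ± 57.6 in myotubes, and Lamb2, a laminin chain, fell from 6728 ± 1261 to 1627 ± 184 on entry into culture.

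Among other oncofetal and fetal growth genes Igf2, H19 and the imprinted Mest were called higher at both steps. The share of all genes called higher at both steps was not counted, so this is a description. Of the 11 tested, 6 rose and 3 fell on entry into culture (median 1.46), 54.5% and 27.3% against 37.6% and 35.7% of all genes. From there to myotubes 6 rose and 5 were not called (median 1.38), a share of 54.5% against 28.6% of all genes. One of these rises, that of Gpc3, a cell-surface proteoglycan, was called at 3.22 ± 1.14 and lost its call in 9 of 20 alternatives. Between the ends 8 rose and 1 fell (median 3.13), 72.7% and 9.09% against 40.2% and 37.3% of all genes. Plag1, a zinc-finger activator of Igf2, was at 0, 3 and 3 in freshly isolated, 63, 49 and 78 in proliferating and 123, 88 and 97 in myotube libraries (log2 change 4.65 ± 0.53 on entry into culture, 3.98 without freshly isolated 1). Cdkn1c, an imprinted inhibitor of the cell cycle, was at 5556, 334 and 850, then 25, 106 and 83, then 12852, 14582 and 14915, and its fall of 4.24 on the log2 scale was -3.12 without freshly isolated 1, -5.14 without freshly isolated 2 and -3.62 without proliferating 1. Its rise of 7.84 into myotubes was 7.22 without proliferating 1. Dlk1, a fetal Notch-family ligand, fell from 70, 46 and 53 to 1, 0 and 1 and was at 6, 4 and 1 in myotubes. Plag1 and Trim71 passed the filter on low values only through cultured libraries, Gpc3 only with its myotube libraries, and Dlk1 only through freshly isolated libraries. Counts of this list that include them are therefore a description. Hmga2 thus shared its level near 0 in freshly isolated cells with Plag1 and Igfbp2, while the genes of this last list that were called in myotubes against proliferating cells were all higher there.

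The genes whose profile over the 9 libraries was closest to each member were found by Pearson correlation of log2 values among 10934 candidates with a mean of at least 100 in their highest stage. The points share stages and libraries, so r is a description, and it takes no account of the size of a change. For Hmga2 they were Brca1, Spdl1 and Bid (r = 0.998 each). Brca1, a DNA repair gene, went from 41, 23 and 22 to 1694, 1489 and 1555 and then 467, 576 and 330. For Hmga1 they were Trmt2a (0.989), Tnfrsf1b (0.988) and Nol9 (0.987), of which Nol9, a nucleolar kinase, went from 906, 1149 and 947 to 2181, 1841 and 1832 and then 769, 785 and 824. For Igf2bp1 they were Tfdp2 (0.989), Klhl30 (0.985) and Ankrd2 (0.984), and Ankrd2, a muscle ankyrin-repeat protein, was at 28, 21 and 11, then 6, 31 and 28, then 503, 340 and 470. Tfdp2 changed far less than Igf2bp1, with means of 2240 in freshly isolated cells, 2162 in proliferating cells and 2863 in myotubes. For Igf2bp2 they were Ubtd2 (0.986), Hnrnph1 (0.985) and Atp8a1 (0.984). For Igf2bp3 they were Pigb (0.984), Ctdspl2 (0.976) and Gng11 (0.966), each lowest in freshly isolated 1. For Lin28b they were Kcnh6 (0.981), Cxcl10 (0.973) and Col9a3 (0.966), and Cxcl10, a chemokine, was at 331, 254 and 323 in freshly isolated and at 10 or less in cultured libraries.

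Markers of other cell types moved between the stages as well, and their part in the levels of the 6 genes was not tested. The summed level of 9 fibroblast markers was 4026 to 5097 in freshly isolated, 579 to 680 in proliferating and 887 to 1118 in myotube libraries, with Dpt and Lum at 0 in each proliferating library. Of 6 leukocyte markers the sums were 551 to 649, 57 to 76 and 238 to 258, with Adgre1 at 0 in freshly isolated and proliferating libraries. Only 2 of the 6 could be tested, and they went opposite ways: Cd68 made up most of the first sum (600 ± 44.1 in freshly isolated cells and 22.7 ± 2.08 in myotubes) and Itgam most of the last (3.33 ± 2.31 and 222 ± 8.08). Itgam passed the filter on low values only through its myotube libraries. The sums of 6 endothelial markers were 127 to 249, 91 to 126 and 105 to 142. Of 4 tested, 3 were lower and 1 higher in myotubes than in freshly isolated cells (75.0% and 25.0%, against 37.3% and 40.2% of all genes). The higher one was Vwf (28 ± 11.3 in freshly isolated cells and 98.3 ± 14.6 in myotubes). Cdh5, one of the lower ones, passed the filter on low values only through its freshly isolated libraries, so the endothelial count is a description. The sums of 4 Schwann cell markers were 92 to 203, 38 to 48 and 34 to 45. Like Lin28b and Igf2bp2, the fibroblast, leukocyte and Schwann sums were highest in freshly isolated cells, and the endothelial sum had its highest value there but overlapped that of myotubes. Dpt (3084 in the mean) made up most of the fibroblast sum in freshly isolated cells. The fibroblast list itself was split. Of 7 tested, 3 were higher and 4 lower in myotubes than in freshly isolated cells (42.9% and 57.1%, against 40.2% and 37.3% of all genes). Dcn, Dpt and Pi16 passed the filter only through freshly isolated libraries and Pdgfra only through cultured ones, so the fibroblast count is a description too. The sums of 7 pericyte or smooth muscle markers were 24308 to 27000, 9714 to 21996 and 63000 to 64068. Acta2 made up most of the last of these (60967 ± 636), while Notch3 fell from 22304 ± 795 in freshly isolated cells to 1990 ± 381 in myotubes and Cspg4 from 398 ± 23.8 to 162 ± 14.5, and the list's median between these stages was -0.40. The sums of 4 tenocyte markers were 265 to 386, 1595 to 1847 and 3188 to 4163, with Tnmd at 0 in each cultured library. Scx made up most of the last (3745 ± 555), while Mkx and Fmod were lower in myotubes than in freshly isolated cells, and the median was -0.93.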

How the data were processed

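Total RNA (100 ng) of each of 9 samples was depleted of ribosomal RNA and made into stranded libraries, per the labels' protocols. The submitters' processing notes name the build mm10 (GRCm38), the aligner STAR 2.4.0a and the counter featureCounts 1.4.5-p1 of Subread. The deposited values have the unit score: they are gene counts that the authors had normalized across libraries and rounded, by a method not given in the sources read here. Columns named with Q were assigned to freshly isolated cells by elimination.

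The filter asked for 10 normalized reads in 3 or more libraries, which left 17291 of 45706 genes. Log2(value + 1) was fitted with limma 3.58.1 in R 4.3.3 with a mean-variance trend over all 9 libraries, and calls were made at p below 0.05 after Benjamini-Hochberg adjustment over the 17291 genes. Since the values are no longer raw counts, no count model was fitted. A fold is on the log2(value + 1) scale, and for low genes it can lie below or above the ratio of the means. It lay above that ratio for Igf2bp1 in myotubes against proliferating cells, where the means were 100 and 7.33. Ratios between members were compared by exact permutation tests over libraries, 8 in all, and those with Hmga2 are not reported. The fit was tested on simulated data. Libraries with the same replicate number did not deviate together (correlations of -0.0338 to 0.027 in 9 pairs). The limma p-values rest on a spread per gene that is pooled over the stages and moderated by the trend over all genes. The 3 libraries of a stage are from different animals.

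Genes were named by rule: the members, the 3 genes most alike in profile to each, and up to 2 called rises and falls of each list per comparison, with single list members added. Not each gene that the rule picks is reported. The members and lists were chosen with earlier results of these data known. Positions and 3' UTRs are from GENCODE vM21, to which 45143 genes matched, and microRNA and promoter sequences from RefSeq. For each comparison 20 other settings were tried, plus 1 chosen after seeing the data, which leaves out freshly isolated 1 and proliferating 1. Python 3.11.15 with pandas 2.3.3, numpy 2.4.6, scipy 1.17.1 and matplotlib 3.10.9 was used.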

Additional observations from a re-analysis of the deposited data

How the results depend on the processing

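The called changes of Hmga1, Igf2bp1, Igf2bp2 and Lin28b kept their direction and their side of the threshold in each alternative that could be run, with log2 changes on entry into culture of 1.82 to 2.44 for Hmga1, -1.18 to -0.77 for Igf2bp2 and -2.21 to -1.35 for Lin28b, and from proliferating cells to myotubes of -3.53 to -3.04 for Hmga1 and 3.21 to 4.66 for Igf2bp1. The difference of Hmga2 there was -3.50 to -2.91. Lin28b could not be tested without 1 of its freshly isolated libraries or at a minimum of 50. Some differences that were not called changed sign, and the cause was not tested. For Igf2bp1 on entry into culture (-0.16) the values were 0.51 with quantile normalization, 0.34 without freshly isolated 1, 0.66 without proliferating 1 and 1.16 without both (adjusted p = 0.0519), and leaving out single libraries gave -0.80 to 0.66. For Igf2bp3 there (1.31) they were -0.30 without freshly isolated 1 and -0.46 without both, and -0.30 to 2.28 without single libraries. From proliferating cells to myotubes Igf2bp2 (0.01) was at -0.23 when scaled to totals without the 10 largest genes, -0.08 with quantile normalization, -0.04 without proliferating 1, myotubes 1 or both libraries that stand apart, and -0.07 without myotubes 2, and Lin28b (0.16) was at -0.02 and -0.07 with those scalings, -0.13 without proliferating 1 and -0.08 without myotubes 1. Without single libraries these ranged from -0.07 to 0.12 for Igf2bp2 and from -0.13 to 0.53 for Lin28b. Igf2bp3 between the ends passed the test with quantile normalization (1.79, adjusted p = 0.0469). The scaling to totals moved the median of all genes to 0.249 on entry into culture and to -0.193 from there to myotubes, and its counts of 3844 higher and 5557 lower genes there stand against 4951 and 4402. With the replicate number as a block, the counts were 6446 higher and 6117 lower, 4843 and 4245, and 6916 and 6395, and no call of the 6 genes changed. The libraries share only a number, so the block is no pairing. Depth limits Hmga2, Igf2bp1, Lin28b and Igf2bp3 in freshly isolated cells, with 1, 15, 38 and 54 estimated reads there.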
